A study of Chlorocebus aethiops with 36 samples.

Results

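The question was whether liver gene expression of African green monkeys changed differently over the same diet interval when miR-33 was blocked. The samples were the 24 of 36 liver arrays titled week 4 and week 12, joined by the animal identifier in the labels into 12 within-animal changes. For each gene the change, week 12 minus week 4, was averaged over 6 animals given anti-miR-33 and over 6 given a control anti-miR, and the control mean was subtracted from the anti-miR-33 mean. All 12 animals were male, and their age was not given in the sources used here. Each received its oligonucleotide under the skin at 5 mg/kg, with 2 doses a week for 2 weeks and then 1 a week for 10 weeks. Both arms ate normal chow until the week 4 biopsy and then a high carbohydrate, medium cholesterol diet for 8 weeks, until the week 12 biopsy. The treatment continued through the interval, so no group here received the diet without an oligonucleotide. The interval also holds time, continued dosing and the biopsies themselves, which cannot be told apart from the diet within an arm. RNA of another primate was read on a human array, so a level depends on how well its probes match and is compared only within a probe set. The other 12 arrays, taken at week -5 before treatment, are used below only to show where a gene stood at baseline, with the arm taken from the animal.

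Anti-miRs are antisense oligonucleotides that pair with a microRNA and keep it from its targets. MiR-33 sits within the introns of the SREBF genes, is made together with these master regulators of sterol and fatty acid synthesis, and represses genes of cholesterol export and of fatty acid oxidation. A carbohydrate-rich diet is known to induce fatty acid synthesis in the liver through SREBF1 and to lower fatty acid oxidation. NLRC5 is the transactivator of the major histocompatibility complex (MHC) class I genes, which present peptides to cytotoxic T cells and which interferon induces. WNT2B is a secreted Wnt ligand. In the liver, Wnt ligands from endothelial and other cells around the central vein act with R-spondins on hepatocytes and set the zonation of their metabolism.

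The animals are numbered by their replicate number at weeks 4 and 12. Values are log2 array levels, and every difference between arms is anti-miR-33 minus control, so a negative value means that the gene fell more, or rose less, under anti-miR-33. The hepatocyte gene ALB ranked 15 to 27 from the top on every array of the series, with levels of 13.18 to 14. The label of 1 of the 12 week 4 arrays, that of control animal 1, names the week 12 diet, while the other 11 name chow. The array's title and time were kept. As a description of that array, a diet score was taken as the mean of all genes that rose minus the mean of all genes that fell in the anti-miR-33 animals. The control levels entered that choice only through the spread that the fit shares between arms. At week 4 the score of control animal 1 was 0.91, while the other 5 control animals lay between 0.50 and 0.67 and the anti-miR-33 animals between 0.26 and 0.64. At week 12 the control animals lay between 1.05 and 1.40. The array of control animal 1 thus stood between the other week 4 arrays and the week 12 arrays, and within the 0.73 to 1.08 of the control animals at baseline. Whether it was taken on chow was not tested further, and counts without this animal are given below. The array identifiers in the labels put the week 4 arrays of both arms into a number range of their own, and this cannot be told apart from the time. A measure of RNA quality, the 3′ minus 5′ difference averaged over the array's control probe sets for ACTB and GAPDH, changed by -0.08 ± 0.45 (SD, n = 6) in control animals and by -0.15 ± 0.37 in anti-miR-33 animals. The arms differed by -0.07 ± 0.24 (SE) in that change (exact permutation p = 0.747, two-sided). The mean joins opposite shifts: GAPDH changed by -0.35 in controls and -0.46 under anti-miR-33, and ACTB by 0.20 and 0.16. Control animal 1 had the lowest week 4 mean value, 1.09, where the other animals ran from 1.355 to 2.445. Its change of 0.67 was also the largest.

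Both arms changed over the diet interval. In control animals limma called 1065 of 13634 tested genes (7.81%) at an adjusted p under 0.05, of which 564 rose (4.14%) and 501 fell (3.67%). In anti-miR-33 animals 1600 were called (11.7%), of which 779 rose (5.71%) and 821 fell (6.02%). Centring each array on its median turned the latter split into 1124 risen and 624 fallen. Of the genes that rose, 269 were called in both arms, which is 47.7% of the control list and 34.5% of the anti-miR-33 list. Of those that fell, 311 were called in both, or 62.1% and 37.9%. No gene was called up in one arm and down in the other. Of the control list 97.9% had the same sign in the anti-miR-33 arm, and of the anti-miR-33 list 97.8% had the same sign in the control arm. The counts depended on single animals: 426 control changes were called without control animal 5, 462 without animal 3, 546 without animal 2 and 691 without animal 6. The anti-miR-33 count ranged from 876, without animal 2, to 1695, without control animal 5, and stood at 887 without anti-miR-33 animal 5, 985 without animal 3 and 1085 without animal 6. Without control animal 1, 430 genes rose and 364 fell in the controls, and the shared lists held 248 and 255 genes. Without control animal 5 the shared lists held 128 genes that rose and 160 that fell. These were 60.4% and 74.8% of the control lists, and 15.4% and 18.5% of the anti-miR-33 lists.

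SCD, the desaturase that makes monounsaturated fatty acids, rose in both arms. Its change had a lowest value of 0.51, a median of 1.47 and a highest of 2.34 in control animals, and of 0.55, 2.02 and 2.39 in anti-miR-33 animals. The mean rise was 1.47 ± 0.22 (SE, adjusted p = 0.00161) in controls and 1.79 ± 0.22 (adjusted p = 1.64e-04) under anti-miR-33. The animals of the arms overlapped over nearly their whole range, and the difference was 0.32 ± 0.32 with a 95% interval of -0.34 to 0.98. It stood at 0.13 without control animal 6 and at 0.57 without anti-miR-33 animal 1. DUSP1, a phosphatase of the immediate early class, rose by 1.75 and 1.19 in the same order. Among the largest falls shared by the arms, HBB, the beta chain of hemoglobin, fell by 1.34 in controls and by 1.84 under anti-miR-33. FBXL17, a subunit that selects ubiquitin ligase targets, fell by 1.03 and 0.94, and ANXA6, a calcium-dependent membrane-binding protein, by 1.07 and 1.15. DLST, a subunit of the 2-oxoglutarate dehydrogenase complex, fell by 0.91 and 0.88. The differences for FBXL17, ANXA6 and DLST were 0.10, -0.07 (another ANXA6 probe set at -0.005) and 0.03 and so were small beside the falls themselves.

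**Figure D1:**
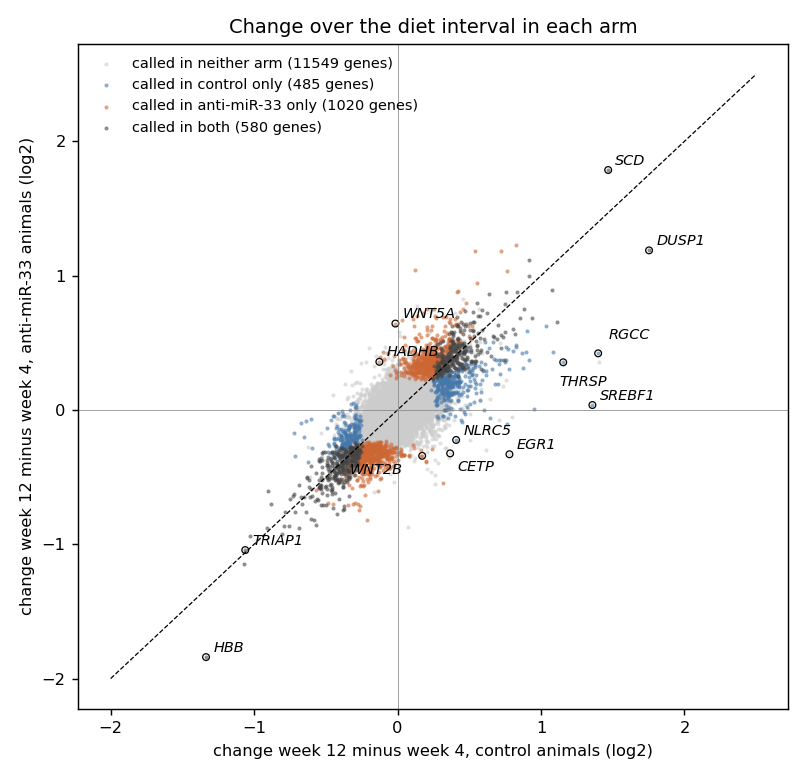
Mean log2 change from week 4 to week 12 in control animals (x axis) and in anti-miR-33 animals (y axis) for the 13634 tested genes, with named genes marked. Of the marked genes, TRIAP1 lies near the diagonal, where both changes are equal, and SCD a little above it. SREBF1, RGCC, THRSP, NLRC5, WNT2B and CETP lie below it, and WNT5A and HADHB above it.

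For the difference between arms itself, limma called 0 of 13634 genes (0%), and the smallest adjusted p was 0.998. At an unadjusted p under 0.05 there were 489 genes (3.59%), of which 185 were higher (1.36%) and 304 lower (2.23%) under anti-miR-33. A share of 5%, or 681.7 genes, is what the threshold alone would give over independent genes without a difference. Fits that kept the arrays apart with the animal as a random block also called 0 genes, with 492 at an unadjusted p under 0.05 from the 24 arrays and 487 from all 36. The balance of higher and lower genes depended on the scaling: 37.8% of those 489 were higher, against 46.7% after quantile normalization and 52.4% after median centring. The median difference over all tested genes was -0.01, and 46.7% of them lay above 0 and 53.2% below (above 0, 49.8% and 53.1% under these scalings). The median standard error was 0.13 and the median 95% interval reached 0.28 to either side. Of the 2085 genes called in at least one arm, the interval of the difference lay within 0.5 of 0 for 1493 and within 1 of 0 for 2049. None of the differences described below passed the test, so each is given as a value with its interval or error. Leaving out each animal in turn gave 0 or 1 called genes, and the 1 gene is described with CETP below.

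NLRC5 stood at 5.56 ± 0.28 (SD, n = 6) at week 4 and 5.97 ± 0.24 at week 12 in control animals, and at 5.78 ± 0.21 and 5.56 ± 0.16 in anti-miR-33 animals. At week 4 its levels ran from 5.21 to 6.05 in controls and from 5.56 to 6.04 under anti-miR-33. At week 12 they ran from 5.58 to 6.28 and from 5.37 to 5.84. The arms thus overlapped at both times, with the control animals lower in mean on chow and higher in mean on the diet. Within animals, the change in controls had a lowest value of -0.02, a median of 0.36 and a highest of 1.07, and NLRC5 rose by 0.41 ± 0.12 (SE, adjusted p = 0.045), with 5 of 6 animals above 0. Under anti-miR-33 the change ran from -0.46 over a median of -0.30 to 0.18, with a mean of -0.22 ± 0.12 (adjusted p = 0.235) and 1 of 6 animals above 0. The changes of the arms overlapped between -0.02 and 0.18. The difference was -0.63 ± 0.17 with a 95% interval of -0.99 to -0.27, or 1.55-fold on the linear scale. It ranked 10 among all tested genes by unadjusted p (0.00155), and its adjusted p was 0.998. With each animal left out in turn the difference lay between -0.72 and -0.50, and it was smallest in size without control animal 1. The call in the controls was kept in 5 of 12 such fits and not kept when anti-miR-33 animal 1, 5 or 6 or control animal 1, 2, 3 or 4 was absent. At baseline the arms stood 0.11 apart, at week 4 0.22 and at week 12 -0.41.

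WNT2B stood at 4.46 ± 0.14 (SD, n = 6) and 4.63 ± 0.12 in controls, and at 4.72 ± 0.12 and 4.38 ± 0.17 under anti-miR-33, at weeks 4 and 12. Its control levels ran from 4.24 to 4.60 and then from 4.47 to 4.80, and its anti-miR-33 levels from 4.50 to 4.84 and then from 4.05 to 4.52. The order of the arms was therefore turned between the times, with a slight overlap at each. Its change in controls ran from -0.06 over a median of 0.12 to 0.56, with a mean of 0.17 ± 0.09 (adjusted p = 0.235). Under anti-miR-33 WNT2B fell in each of 6 animals, from -0.65 over a median of -0.32 to -0.14, with a mean of -0.34 ± 0.09 (adjusted p = 0.0186). The changes of the arms did not overlap. The difference was -0.51 ± 0.12 with an interval of -0.77 to -0.25, or 1.43-fold on the linear scale. It ranked 2 by unadjusted p (5.47e-04), and its adjusted p was 0.998. It ranged from -0.56 to -0.44 over the animals left out. The call in the anti-miR-33 animals was lost without animal 6, whose change of -0.65 was the largest (adjusted p = 0.0692). WNT2B lay near the filter on low levels, with a mean of 4.56 against the limit of 4.459. Its 3 other probe sets lay below that limit and differed by 0.07, -0.06 and -0.12, so the value rests on 1 dim probe set. At baseline the arms stood -0.03 apart, at week 4 0.26 and at week 12 -0.25.

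Genes whose changes did not overlap between the arms numbered 15 of 13634 (0.11%), with 4 higher (0.0293%) and 11 lower (0.0807%) under anti-miR-33. In 1 of them, NFKBIE, an inhibitor of the transcription factor NF-kappaB, all 6 control animals lay above 0 and all 6 anti-miR-33 animals below it, which held for 0.00733% of the tested genes. The control changes ran from 0.06 over a median of 0.20 to 0.22, and the anti-miR-33 changes from -0.42 over -0.22 to -0.05. The arms were hence opposed in each animal, though neither arm's change was called (adjusted p = 0.18 and 0.0521). The difference was -0.40 ± 0.11 with an interval of -0.62 to -0.17. The other non-overlapping genes among those of smallest p were LOC100506274, CRY2 and SLCO3A1, all lower, and LCIIAR, which was higher.

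CETP, the plasma protein that transfers cholesteryl esters from high to low density lipoproteins, is named here after its values were seen. Its control level was 7.79 ± 0.45 (SD, n = 6) at week 4 and 8.16 ± 0.23 at week 12, and its anti-miR-33 level 8.32 ± 0.52 and 8.00 ± 0.59. Both arms stood higher at baseline, at 9.73 ± 0.28 and 9.54 ± 0.42. In controls the change ran from -0.08 over a median of 0.38 to 0.79. Under anti-miR-33, 5 animals lay between -0.98 and -0.34 and animal 4 at 1.34, so that a single animal went against the rest of its arm. The difference over all animals was -0.69 ± 0.28 with an interval of -1.27 to -0.11 (adjusted p = 0.998). Without anti-miR-33 animal 4 it was -1.02 and passed the test (adjusted p = 0.0311), the only gene to do so in any fit that left out an animal. That animal was the one whose value opposed the others of its arm.

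**Figure D2:**
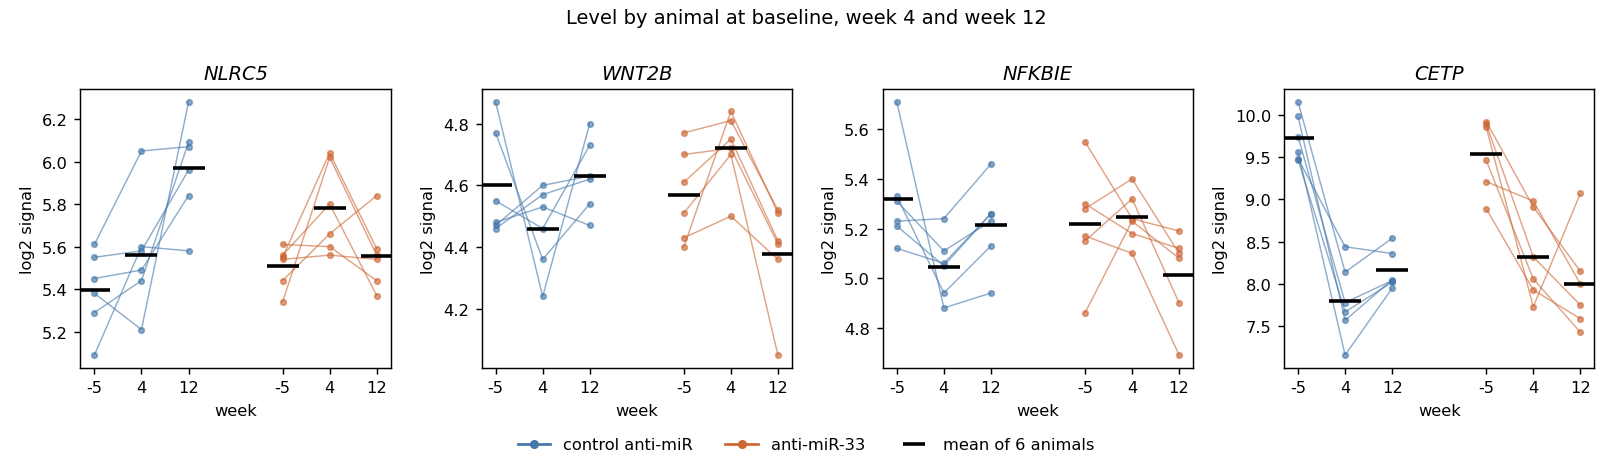
Log2 levels of NLRC5, WNT2B, NFKBIE and CETP (y axes) in each animal at week -5, week 4 and week 12 (x axes), by arm, with lines joining the arrays of an animal and marks for the group means. The arm means cross between week 4 and week 12 in each panel, and 1 anti-miR-33 animal of CETP runs against the other 5.

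Such crossing was common to the genes of smallest p. Of the 10 lower and 10 higher ones, the arms had opposite signs at weeks 4 and 12 in 18 of 20. In 11 of them the arms lay farther apart at week 4, before the diet, and in 9 at week 12. The baseline difference had the sign of the week 4 difference in 7 of 20. In 5 the control change was called and in 10 the anti-miR-33 change (7.81% and 11.7% of all tested genes). The share of all tested genes whose arms crossed is not given here. These genes were chosen by the same difference, and a large difference in change favours arms that cross, so these counts describe them and test nothing.

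Among the lower ones, PTH1R, a receptor for parathyroid hormone, fell by 0.82 ± 0.10 (SE, adjusted p = 1.93e-04) under anti-miR-33, in 6 of 6 animals, from -1.16 over a median of -0.76 to -0.56. In controls its change ran from -0.64 over -0.30 to 0.26, so that the arms overlapped a little at their edges. The difference was -0.60 ± 0.15 with an interval of -0.91 to -0.30. CRY2, a repressor of the circadian clock, fell by 0.52 ± 0.08 (adjusted p = 6.30e-04) under anti-miR-33, from -0.65 to -0.40, while its control changes ran from -0.34 to 0.03. Its changes did not overlap between arms, and the difference was -0.39 ± 0.11; no source used here gives the hour of the biopsies. The asparaginase ASRGL1 rose by 0.64 ± 0.13 (adjusted p = 0.007) in control animals, with 6 of 6 above 0, and differed by -0.70 ± 0.18. VAT1L, a gene of unsettled role, rose by 0.44 in controls and differed by -0.52 ± 0.13. JCAD, a junction protein of endothelial cells, had the largest size of the lower genes, -0.86 ± 0.24. Its other probe sets lay below the filter and stood at 0.15 and 0.01. SLCO3A1, an organic anion transporter, differed by -0.45 ± 0.13, but its 3 other probe sets above the filter stood at -0.16, 0.22 and -0.04. LOC100506274 differed by -0.53 ± 0.13, with another probe set, below the filter, at 0.135.

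Of the higher genes, PMM1, a phosphomannomutase, fell by 0.64 ± 0.11 (SE, adjusted p = 0.00384) in controls, in 6 of 6 animals, from -0.87 over a median of -0.71 to -0.26. Under anti-miR-33 its changes ran from -0.32 over -0.24 to 0.46, and the difference was 0.55 ± 0.15. The arms overlapped only at the lower end of the anti-miR-33 range. PDE8B, a phosphodiesterase that degrades cyclic AMP, rose by 0.48 ± 0.08 (adjusted p = 0.00144) under anti-miR-33 and differed by 0.43 ± 0.11. DGKE, a diacylglycerol kinase, differed by 0.61 ± 0.17, and SCRN3 by 0.53 ± 0.15. Other probe sets of PDE8B (0.15 and 0.025), DGKE (-0.105 to 0.14) and SCRN3 (-0.09 to 0.19) lay below the filter. HADHB, the beta subunit of the mitochondrial trifunctional protein of fatty acid oxidation and a known miR-33 target, was among the 10. Its change ran from -0.66 over -0.08 to 0.19 in controls and from 0.19 over 0.28 to 0.71 under anti-miR-33, where it rose by 0.36 ± 0.10 (adjusted p = 0.0303). The arms met at 0.19, with 6 of 6 anti-miR-33 animals above 0, and the difference was 0.49 ± 0.14 with an interval of 0.18 to 0.79. That rise was not called without anti-miR-33 animal 2, 3 or 6. The remaining 5 were LOC100134040, GTF3C2-AS1, CCNYL1, LCIIAR and RSPO1, with differences of 0.40 to 0.52. Other probe sets of GTF3C2-AS1 (-0.045), CCNYL1 (0.015) and LCIIAR (-0.12) also lay below the filter.

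**Figure D3:**
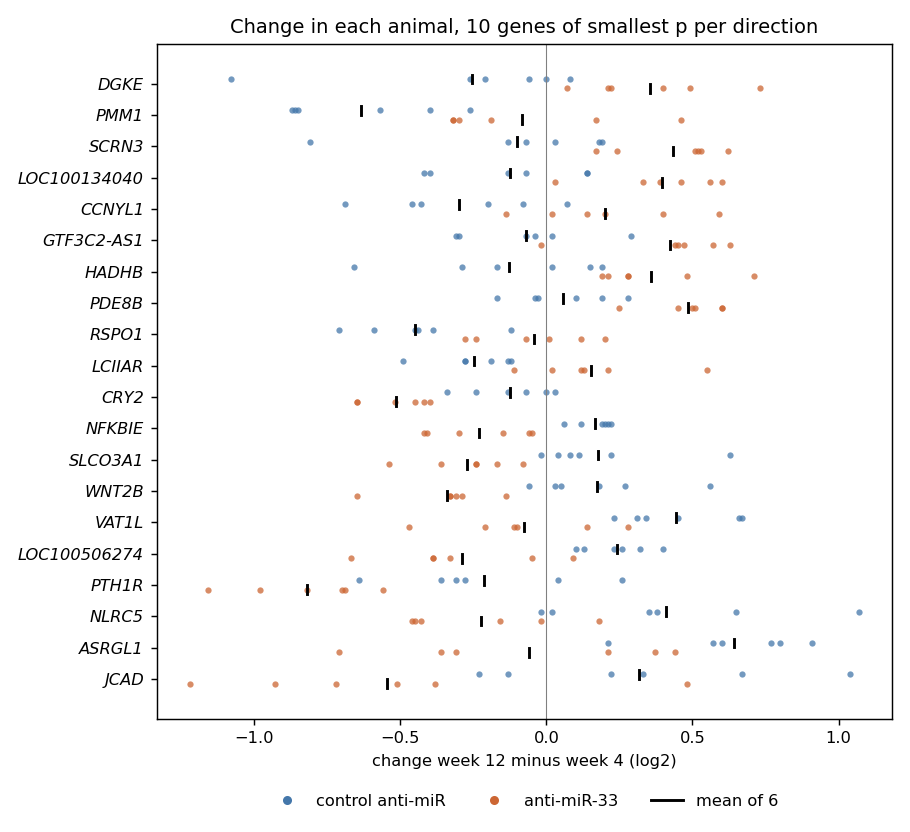
Change in log2 level from week 4 to week 12 (x axis) of each animal for the 10 lower and 10 higher genes of smallest unadjusted p in the difference between arms (y axis), with the arm means as bars. The arms lie apart in mean and overlap by a few animals at most, as the choice by that difference makes likely, and none of the 20 passed the test.

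WNT2B was set beside the list of Wnt ligands, of which it is a member. Of 15 tested ligands, WNT2B included, 6 had a difference above 0 and the median was -0.03 (all tested genes, 46.7% above 0 and -0.01). In the anti-miR-33 animals 1 ligand rose and 2 fell (5.71% and 6.02% of all tested genes), and in the controls none was called (4.14% and 3.67%). The 2 that fell were WNT2B itself and WNT7B. The median was -0.09 without control animal 5. WNT5A, a ligand of the pathway that does not act through beta-catenin, rose under anti-miR-33 by 0.64 ± 0.14 (SE, adjusted p = 0.00895), with a lowest change of 0.18, a median of 0.57 and a highest of 1.43. In controls its changes ran from -0.44 over -0.16 to 0.81, and the difference was 0.66 ± 0.20 with an interval of 0.23 to 1.08. WNT5A was thus on the opposite side of 0 from WNT2B, and the arms overlapped. WNT7B fell under anti-miR-33 by 0.42 (adjusted p = 0.0292) and differed by -0.30 ± 0.17, but another probe set of it stood at 0.08, and the fall was not called without anti-miR-33 animal 2, 4 or 5. WNT5B differed by -0.32 ± 0.16, or -0.20 without control animal 3.

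Among the receptors, agonists and inhibitors of the pathway, 13 of 21 lay above 0 with a median of 0.02, or -0.03 without control animal 1. RSPO1, a secreted agonist that strengthens Wnt signals, fell in the controls in 6 of 6 animals, from -0.71 over a median of -0.44 to -0.12, by 0.45 ± 0.09 (SE, adjusted p = 0.00628). Under anti-miR-33 its changes ran from -0.28 over -0.03 to 0.20, so that the arms overlapped, and the difference was 0.41 ± 0.12 with an interval of 0.15 to 0.67. Its mean level, 4.65, was again near the filter. FZD3 and FZD6, receptors, differed by 0.22 ± 0.17 and 0.22 ± 0.19, and DKK3, of a family of inhibitors, by -0.24 ± 0.16. Single animals moved these values: FZD3 stood at 0.05 without control animal 6, FZD6 at 0.12 without anti-miR-33 animal 5 and DKK3 at -0.11 without anti-miR-33 animal 6. Of the Wnt targets and genes expressed around the central vein, 16 of 21 lay above 0 with a median of 0.05, and at an unadjusted p under 0.05 there were 4 higher and 1 lower (1.36% and 2.23% of all tested genes). The median was 0.10 without anti-miR-33 animal 4. In the controls 3 of them fell (3.67% of all tested genes), OAT, RHBG and NOTUM, and under anti-miR-33 NOTUM did (6.02%). The feedback inhibitor AXIN2 was below 0 in 6 of 6 controls, from -0.46 to -0.10, and lay between -0.21 and 0.37 under anti-miR-33. Its difference was 0.28 ± 0.12, while 3 other probe sets stood at 0.03, -0.01 and 0.01. OAT, an ornithine aminotransferase of pericentral hepatocytes, fell by 0.61 (adjusted p = 0.0202) in controls and differed by 0.54 ± 0.21; its call was lost without control animal 1, 3, 4 or 5. The cytochrome CYP2E1 differed by 0.31 ± 0.14 (0.20 without control animal 5), and MYC, the lower gene, by -0.41 ± 0.19. The periportal genes, of the opposite zone, also lay mostly above 0, 7 of 8 with a median of 0.13, or 0.03 without control animal 5.

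NLRC5 was next set beside a list of MHC class I presentation. The list covers that pathway and was not limited to genes that NLRC5 is known to act on. Of 17 tested genes of MHC class I presentation, NLRC5 included, 5 lay above 0 and the median difference was -0.11, between a median change of 0.23 in controls and of 0.08 under anti-miR-33. In the controls 5 rose and none fell, where 4.14% of all tested genes rose and 3.67% fell. They were NLRC5, the peptide-loading gene TAPBP (0.42, adjusted p = 0.0196), the immunoproteasome subunits PSMB8 (0.75, adjusted p = 0.00468) and PSMB9 (0.78, adjusted p = 0.0276), and ERAP1, which trims peptides (0.46, adjusted p = 0.00496). Under anti-miR-33, 3 rose (5.71% of all tested genes): ERAP1 (0.43) and the chaperones PDIA3 (0.30, adjusted p = 0.0146) and CANX (0.45, adjusted p = 0.0104). The calls of PSMB8 and ERAP1 were kept in all 12 fits that left out an animal, that of TAPBP was lost without control animal 1 or 3, and that of PSMB9 without control animal 1, 3 or 5. TAP1, a subunit of the peptide transporter, had changes of -0.11 over a median of 0.16 to 0.83 in controls and of -0.44 over -0.17 to 0.21 under anti-miR-33, and differed by -0.38 ± 0.15. PSMB8 differed by -0.39 ± 0.19, or -0.22 without control animal 3. TAPBP differed by -0.29 ± 0.14, or -0.18 without control animal 1, with 2 other probe sets at -0.09 and -0.14. By animal, the mean change of the list was 0.66 in control animal 1 and 0.55 in control animal 3, and between -0.06 and 0.19 in the other controls. It ran from -0.07 to 0.25 under anti-miR-33. The higher mean in controls thus came from 2 animals, 1 of them the animal whose week 4 label names the other diet, and without control animal 1 the median difference was -0.04. The 3′ minus 5′ value changed by 0.67 in control animal 1, the largest change, and by -0.41 in control animal 3. Its part in the MHC values was not tested.

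The MHC class II genes, which serve presentation to helper T cells and are driven by another transactivator, were compared in the same way. Of 13 tested, 2 lay above 0 with a median of -0.26, and in controls 3 rose, HLA-DRA, HLA-DMA and HLA-DMB, while under anti-miR-33 none was called. Of all tested genes 4.14% rose in controls, and 5.71% rose and 6.02% fell under anti-miR-33. HLA-DMA, which helps load peptides, rose by 1.08 (adjusted p = 0.0106) and differed by -0.65 ± 0.33, or -0.41 without control animal 1. Its partner HLA-DMB differed by -0.34 ± 0.12, with control changes of 0.14 to 0.47 and anti-miR-33 changes of -0.29 to 0.17. With each animal left out, HLA-DMB was called in 3 of 12 fits, and that of HLA-DRA was lost without control animal 1, 3 or 5. By animal the list's mean change was again highest in control animals 1 (0.87) and 3 (0.72), and the other controls lay between 0.01 and 0.23. Without control animal 1 the median difference was -0.12. Members of the NLR family and inflammasome, NLRC5 included, gave 1 of 9 above 0 with a median of -0.11, or -0.04 without control animal 1. In controls 2 of them rose (4.14% of all tested genes), NLRC5 itself and the protease CASP1, the latter by 0.50 (adjusted p = 0.00672). In the interferon response 11 of 30 lay above 0 with a median of -0.07. In controls 5 of them rose (4.14% of all tested genes), and under anti-miR-33 2 rose and 1 fell (5.71% and 6.02%). At an unadjusted p under 0.05, 0 were higher and 5 were lower (1.36% and 2.23% of all tested genes). They included the antiviral genes IRF7 (-0.47 ± 0.17), BST2 (-0.33 ± 0.13) and OAS1 (-0.34 ± 0.14, another probe set at 0.15) and the regulator IRF1 (-0.42 ± 0.17, another at -0.17). Without control animal 5 the median of the interferon list was 0.01, so its sign rested on that animal.

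Genes of fatty acid oxidation lay mostly on the higher side. Of 30 tested, 25 lay above 0 with a median of 0.17, between a median change of -0.05 in controls and of 0.16 under anti-miR-33, and at an unadjusted p under 0.05 there were 5 higher and 1 lower (1.36% and 2.23% of all tested genes). Under anti-miR-33, 7 rose and 3 fell (5.71% and 6.02% of all tested genes), and in controls 1 rose and 3 fell (4.14% and 3.67%). The 7 were HADHA and HADHB, the subunits of the trifunctional protein, ECI2 and DECR1, which handle unsaturated chains, ETFA and ETFDH, which pass the electrons on, and the coactivator PPARGC1A. Of them ETFDH (0.73, adjusted p = 0.00204) was called in all 12 fits that left out an animal, and HADHA and ECI2 in 5 of 12 each. ETFDH also rose in controls (0.47, adjusted p = 0.029). By animal, the list's mean change ran from 0.05 to 0.32 under anti-miR-33, with 6 of 6 above 0. In controls it ran from -0.29 in animal 5 and -0.25 in animal 1 to 0.24 in animal 2, so the arms overlapped and the controls were the more spread. The median difference was 0.12 without control animal 5 and 0.05 without control animals 1 and 5, the latter an alternative added after the data were seen.

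PPARGC1A had changes of -1.29 to 2.29 in controls and of -0.23 over a median of 1.22 to 1.65 under anti-miR-33, where it rose by 1.04 ± 0.29 (SE, adjusted p = 0.0281). Its difference of 0.92 ± 0.41 had an interval of 0.06 to 1.79, and the rise was not called without anti-miR-33 animal 1, 2, 3, 4 or 5. PPARA, the nuclear receptor that drives oxidation genes, differed by 0.41 ± 0.16. Its other probe sets above the filter stood at 0.41, 0.265, 0.14 and -0.10. ACSL1, which activates long chain fatty acids, differed by 0.34 ± 0.12, and CPT1A, the carnitine palmitoyltransferase at the mitochondrial entry, by 0.40 ± 0.32. Other CPT1A probe sets stood at 0.45 and 0.18, and the difference ran from 0.19 without control animal 5 to 0.69 without control animal 4. FGF21, a hormone of fasting made by hepatocytes and itself a PPARA target, was the lower gene of the list. Its changes ran from -0.31 over 0.10 to 0.67 in controls and from -0.72 over -0.46 to 0.02 under anti-miR-33, where it fell by 0.39 ± 0.12 (adjusted p = 0.0448), and the difference was -0.58 ± 0.17. The arms overlapped, and the fall was not called in the absence of control animal 3 or of anti-miR-33 animal 1, 4, 5 or 6.

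Fatty acid synthesis lay on the lower side. Of 20 tested genes 4 lay above 0 with a median of -0.14, or -0.06 without anti-miR-33 animal 1 and -0.07 without control animals 1 and 5. Both arms' median changes were above 0, at 0.39 in controls and 0.17 under anti-miR-33. In controls 6 rose and 1 fell (4.14% and 3.67% of all tested genes), and under anti-miR-33 3 rose and 2 fell (5.71% and 6.02%). SREBF1, the transcription factor of the pathway and the host gene of a miR-33 copy in primates, stood at 6.85 ± 0.45 (SD, n = 6) and 8.21 ± 1.5 in controls and at 7.49 ± 0.37 and 7.53 ± 0.87 under anti-miR-33, at weeks 4 and 12. Its changes ran from -0.23 over a median of 1.62 to 2.87 in controls, where it rose by 1.36 ± 0.34 (SE, adjusted p = 0.0236), and from -1.49 over 0.20 to 1.26 under anti-miR-33. The arms overlapped widely, the spread at week 12 was large, and the difference was -1.32 ± 0.49 with an interval of -2.34 to -0.31. Another SREBF1 probe set stood at 0.02, and the rise was not called without control animal 3, 4 or 5. THRSP, a regulator of lipogenesis, rose in 6 of 6 controls by 1.16 ± 0.23 (adjusted p = 0.00672), from 0.20 over 1.26 to 2.46. Under anti-miR-33 its changes ran from -0.64 over 0.60 to 0.83, and the difference was -0.80 ± 0.32. Its interval of -1.47 to -0.13 was wide, as for SREBF1. MID1IP1, a partner of the acetyl-CoA carboxylases, differed by -0.71 ± 0.28, and FASN, the synthase, by -0.78 ± 0.45, with another FASN probe set at -0.08. Without anti-miR-33 animal 1 the FASN difference was -0.48. ACLY, which makes cytosolic acetyl-CoA, rose by 0.68 in controls (adjusted p = 0.0319, not called without animal 1, 4 or 5). It differed by -0.49 ± 0.26, with other probe sets at -0.42 and -0.21. ELOVL6 and ACACA differed by -0.22 ± 0.38 and -0.06 ± 0.13, with another ACACA probe set at 0.08, and without anti-miR-33 animal 4 ELOVL6 stood at 0.01. ELOVL5 rose in both arms, by 0.72 and 0.56, and MLXIPL, the carbohydrate-responsive factor, fell in both, by 0.43 and 0.48.

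**Figure D4:**
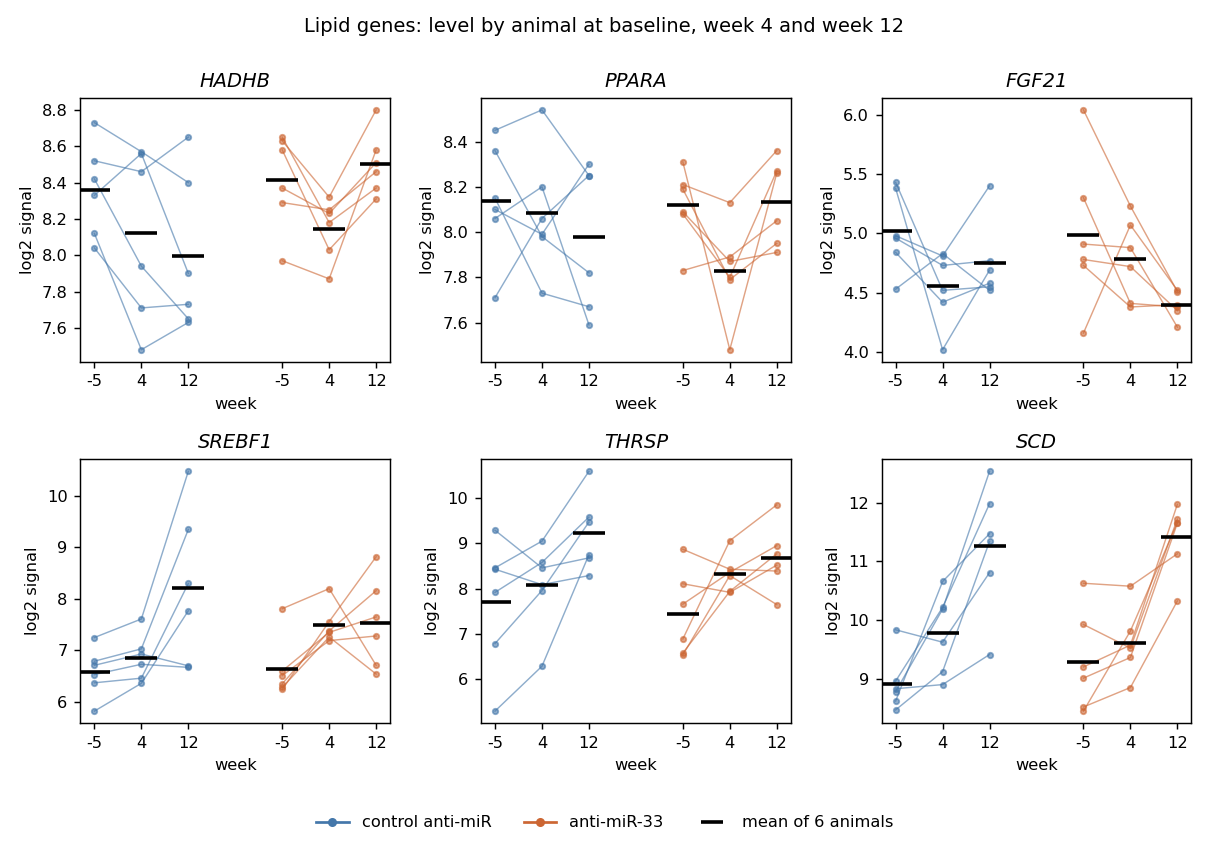
Log2 levels of genes of lipid metabolism (y axes) in each animal at week -5, week 4 and week 12 (x axes), by arm, with lines joining the arrays of an animal and marks for the group means. SCD rises in both arms from week 4 to week 12, while SREBF1 spreads widely among the animals of both arms at week 12.

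The miR-33 targets, taken from knowledge of earlier work, had no common direction: 15 of 28 lay above 0 with a median of 0.01. ABCA1, the exporter of cholesterol to high density lipoprotein, stood at 7.64 ± 0.28 (SD, n = 6) and 8.24 ± 0.22 in controls and at 8.20 ± 0.30 and 8.48 ± 0.36 under anti-miR-33, at weeks 4 and 12. It rose over the interval in 6 of 6 controls, from 0.11 over a median of 0.60 to 1.04, by 0.60 ± 0.14 (SE, adjusted p = 0.0147, not called without control animal 5). Under anti-miR-33 its changes ran from -0.29 over 0.19 to 1.01, with a mean that did not pass (adjusted p = 0.174). The arms overlapped, the anti-miR-33 animals started from the higher mean, and the difference was -0.31 ± 0.19 with an interval of -0.72 to 0.09 and a value of -0.20 without anti-miR-33 animal 1. NRIP1, a corepressor of nuclear receptors, rose in 6 of 6 controls within the narrow range of 0.34 to 0.51, by 0.44 ± 0.10 (adjusted p = 0.0115). Under anti-miR-33 it ran from -0.53 over 0.03 to 0.36, and the difference was -0.43 ± 0.14. CROT, a peroxisomal acyltransferase, differed by 0.12 ± 0.13, NPC1, a lysosomal cholesterol carrier, by -0.14 ± 0.15, and SREBF2, the host of the other miR-33 copy, by -0.17 ± 0.12. Other SREBF2 probe sets stood at -0.17 and, with the opposite sign, at 0.06. Without control animal 5 SREBF2 stood at -0.09. CROT stood at 0.07 without control animal 6 and at 0.21 without control animal 1, and NPC1 at -0.05 without control animal 4 and at -0.22 without control animal 6. ABCG1 had a difference of 0.00 ± 0.13, so that its interval left room for changes to either side. Cholesterol synthesis gave 9 of 19 above 0 with a median of 0.00, with 3 members fallen in controls (3.67% of all tested genes) and 5 under anti-miR-33 (6.02%). Under anti-miR-33 1 member rose (5.71%), INSIG1, which holds back the processing of SREBF proteins, by 1.04 (adjusted p = 0.014, not called without anti-miR-33 animal 2 or 5). The targets of liver X receptors gave 6 of 13 with a median of -0.03, or 0.01 without control animal 5. In glucose metabolism and insulin signalling 5 of 18 lay above 0 with a median of -0.10, or -0.03 without anti-miR-33 animal 1. PFKFB3, which raises glycolytic flux, was its lowest member at -0.94 ± 0.34, and it rose in controls by 0.95 (adjusted p = 0.0233), though not without control animal 3 or 5.

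Immediate early genes, which answer acute stimuli within minutes, had the lowest median of the 30 lists, -0.32, with 2 of 20 above 0. In controls 4 rose (4.14% of all tested genes), and under anti-miR-33 3 did (5.71%). EGR1 had changes of -0.68 over a median of 0.94 to 2.25 in controls and of -1.55 over -0.10 to 0.23 under anti-miR-33, and differed by -1.11 ± 0.36 with an interval of -1.87 to -0.35. FOS differed by -1.05 ± 0.63 and JUN by -0.70 ± 0.31, with another JUN probe set at -0.22. Without control animal 6 FOS stood at -0.51 and JUN at -0.45. The list's mean change was highest in control animals 2 (0.99) and 6 (0.86), while the other controls lay between -0.07 and 0.36 and the anti-miR-33 animals between -0.32 and 0.40. Without control animal 2 the median was -0.15. How the biopsies were taken is not given, and its part in these values was not tested. RGCC, a regulator of the cell cycle, rose in 6 of 6 controls by 1.40 ± 0.21 (SE, adjusted p = 0.00117), against a mean change of 0.42 (adjusted p = 0.184) under anti-miR-33, and differed by -0.98 ± 0.29. In the response to endoplasmic reticulum stress 12 of 17 lay above 0 with a median of 0.04, and 3 genes rose in controls (4.14% of all tested genes) and 7 under anti-miR-33 (5.71%). Of these the chaperone HSPA5 rose by 1.18 ± 0.17 (adjusted p = 5.92e-04) under anti-miR-33, from 0.18 over 1.39 to 1.83, and lay between -0.08 and 1.25 in controls. Its difference was 0.64 ± 0.24 with an interval of 0.13 to 1.15. XBP1, EDEM1 and PDIA6 rose in both arms. Of the remaining lists, bile acid synthesis and transport gave 11 of 16 above 0 with a median of 0.05, the acute phase 11 of 16 with 0.07 and xenobiotic metabolism 10 of 15 with 0.07. Oxidative phosphorylation gave 13 of 24 with 0.03, and the cell cycle 5 of 18 with -0.10. Single animals moved several of these: the acute phase median was -0.01 without control animal 5 (0.004 after quantile normalization), that of bile acid genes 0.13 without anti-miR-33 animal 1, that of oxidative phosphorylation -0.001 without anti-miR-33 animal 2 and that of the cell cycle -0.02 without control animal 5.

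Markers of liver cell types were read beside these lists. In bulk tissue, fewer cells of a type and less RNA per cell cannot be told apart. Hepatocyte markers lay above 0 in 17 of 18, with a median of 0.14, and none had an unadjusted p under 0.05. Their mean level ran from 11.79 to 11.98 at week 4 and from 11.42 to 11.98 at week 12 in controls, and from 11.66 to 11.93 and 11.90 to 12.01 under anti-miR-33. The lowest of these, 11.42, was control animal 5, whose list mean fell by 0.37 between the times, and without it the median was 0.06. Macrophage markers lay above 0 in 3 of 14 with a median of -0.28, or -0.17 without control animal 1. Their mean level ran from 6.51 to 6.89 and then from 6.74 to 7.02 in controls, and from 6.62 to 6.87 and then from 6.48 to 7.05 under anti-miR-33. TYROBP, a signalling adaptor of myeloid cells, fell by 0.43 (adjusted p = 0.0217) under anti-miR-33 and differed by -0.37 ± 0.16. The mannose receptor MRC1 rose there by 0.58 (adjusted p = 0.0137, not called without anti-miR-33 animal 1 or 5), and in controls the monocyte genes CD14 (0.37) and LYZ (0.82) rose. Those calls were lost without control animal 2 and control animal 3, respectively. The TYROBP call was lost without anti-miR-33 animal 3 or 6. Endothelial markers gave 3 of 19 above 0 with a median of -0.14, or -0.09 without anti-miR-33 animal 6 and -0.23 without control animal 4, and ENG fell in both arms. Their mean level ran from 5.99 to 6.67 and then from 6.04 to 6.26 in controls, and from 6.02 to 6.42 and then from 5.99 to 6.4 under anti-miR-33. Stellate cell and fibrosis markers gave 2 of 16 with a median of -0.20, with mean levels of 7.15 to 7.64 and 7.01 to 7.66 in controls and of 7.22 to 7.84 and 6.99 to 7.48 under anti-miR-33. Of the 16, 5 fell under anti-miR-33 (6.02% of all tested genes) and 1 in controls (3.67%). WNT2B is itself a member of this list and 1 of the 5. The matrix proteoglycan BGN fell by 0.50 (adjusted p = 0.00336) and the receptor PDGFRB by 0.35 (adjusted p = 0.0315) under anti-miR-33, the latter not without animal 2, 4, 5 or 6. That list's mean change was -0.85 in anti-miR-33 animal 6 and between -0.20 and 0.02 in the other 5, and without animal 6 the median was -0.10. Lymphocyte markers gave 5 of 16 with a median of -0.11, or -0.06 without control animal 5 and 0.01 without control animals 1 and 5. Plasma cell markers gave 4 of 5 with 0.04, blood markers 4 of 8 with 0.01, cholangiocyte markers 3 of 7 with -0.02, and fat and muscle markers 3 of 6 with 0.00. Of these, plasma cell markers stood at 0.001 without control animal 5, blood markers at -0.05 without anti-miR-33 animal 4 and cholangiocyte markers at 0.03 without that animal. The levels of the marker lists given by range overlapped between arms at both times. Their part in the values of NLRC5, WNT2B, the MHC genes and the oxidation genes was not tested.

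**Figure D5:**
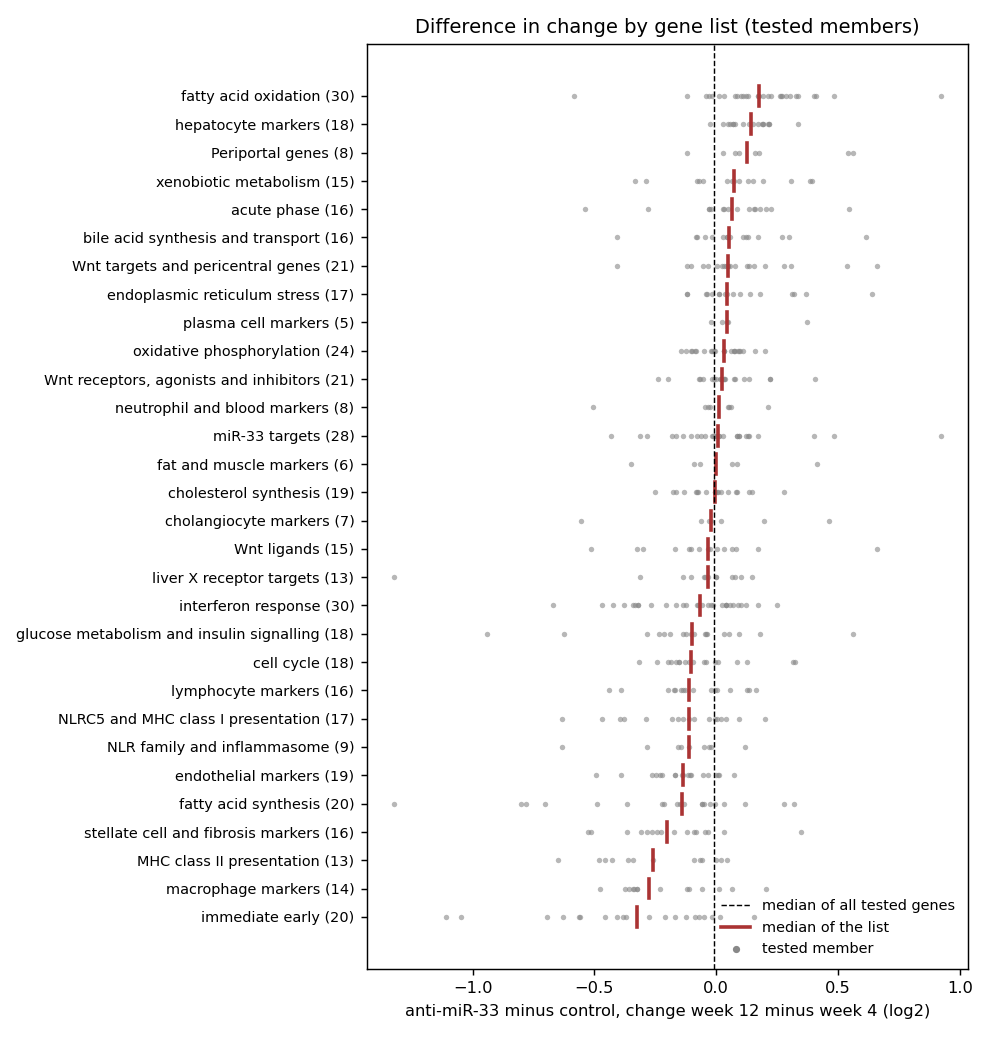
Difference between arms in the log2 change (x axis) for each tested member of the gene lists (y axis), with the list medians marked and the median of all 13634 tested genes as a line. The medians of immediate early genes, macrophage markers and MHC class II presentation lie lowest, and that of fatty acid oxidation lies highest.

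The genes most like NLRC5 and WNT2B were sought by Pearson correlation over the 12 within-animal changes, which share the arms and the arrays. Nearest to NLRC5 were PTPA (r = 0.874), a phosphatase activator, MBOAT7 (0.871), which acylates phosphatidylinositol, C6orf15 (0.871), UNC5B (0.853), a netrin receptor, and ACSS2 (0.841), a cytosolic acetyl-CoA synthetase. Nearest to WNT2B were CTSK (0.901), a cysteine protease, KLHDC7B (0.869), MEPE (0.844), SLC7A11 (0.826), a cystine transporter, and RUSF1 (0.824). They are the highest of 13634 genes, and no test was made. No gene of MHC class I presentation was among those nearest to NLRC5, and no other Wnt gene among those nearest to WNT2B. The changes of CTSK and SLC7A11 in controls each held 1 far value, in animal 6, at 0.72 and 1.89.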

How the data were processed

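Total RNA of liver biopsies was biotin-labelled and hybridised to the HG-U133 Plus 2.0 array, per the labels' protocols. The authors deposited log2 values of 54675 probe sets, made with RMA per the submitters' processing notes (background correction, normalization between arrays and summary of the probes). Neither its version nor whether 1 run covered every array is given in the sources used here, and a shift shared by most transcripts would be lost in it.

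Of the probe sets, 41097 had 1 gene symbol in the platform annotation, 1801 had several and 11777 were not listed and stayed unnamed. Each of 19775 genes was measured by its single-symbol probe set of highest mean, and 13634 genes with a mean at or above the median of all probe sets (4.459) were tested. Other probe sets above that level are quoted beside a gene's difference where they turned its sign or reached less than 50% of it. All 36 columns were matched to samples, and 0 were left unused.

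The change within each animal was fitted in limma 3.58.1 (R 4.3.3) with a mean for each arm, a shared spread, two-sided moderated tests and Benjamini-Hochberg adjustment over all tested genes. Every adjusted p comes from this fit or, where an animal is said to be left out, from the same fit without it. The 95% intervals are from the standard errors of the fit to all 12 animals. The pairing comes from the animal identifiers: the correlation of an animal's deviations at weeks 4 and 12 was 0.163 to 0.496 and exceeded 0.1 in 12 of 12 animals. Across genes, Pearson r between arrays ran from 0.977 to 0.993. The labels call the animals separate, so the spread is that between animals, and 6 per arm limit the precision. The fit was tested on simulated data.

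Named genes were the 10 of smallest p in each direction, NLRC5 and WNT2B, fixed genes of lipid metabolism and immediate early genes, up to 4 members of each of 30 lists by p, genes opposed in all animals, the 5 of largest called change in each direction and arm, and the 5 most correlated with NLRC5 and with WNT2B. CETP and the list members named as called within an arm were added after their values were seen. The members and lists were chosen with earlier results of these data known. Some genes of that rule are not reported here.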

Additional observations from a re-analysis of the deposited data

Results flagged for a closer look

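The 6 changes of each arm were checked for 110 of the named genes, some of which are not described above. Of 220 sets of values, 23 held an animal far from the others by Dixon's criterion, which chance gives in about 1 in 20. Anti-miR-33 animal 6 was the far animal for WNT2B (-0.65), DKK3 (-0.98), BGN (-0.82), PDGFRB (-0.89) and CRP (0.91). Anti-miR-33 animal 4 was so for CETP (1.34), VSIG4 (0.71), HBB (-0.09) and TRIAP1 (-1.69), animal 2 for GTF3C2-AS1 (-0.02) and animal 3 for WNT5B (-0.72). In the controls, animal 1 lay apart for SCRN3 (-0.81), TTPA (-1.38) and LBP (-0.72), and animal 2 for SLC1A2 (1.39) and HAL (1.76). Animal 4 lay apart for SLCO3A1 (0.63) and DGKE (-1.08), animal 5 for PFKFB3 (2.32) and TTR (-0.64), and animal 6 for FZD3 (-0.81), CTSK (0.72) and SLC7A11 (1.89).

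NFKBIE is listed because its change was above 0 in all 6 control animals and below 0 in all 6 anti-miR-33 animals. Its difference of -0.40 had an adjusted p of 0.998 in limma.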

How the results depend on the processing

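The number of genes called in the difference between arms was 0 under each alternative but the fit without anti-miR-33 animal 4, which called 1, a range of 0 to 1. At an unadjusted p under 0.05 the count ran from 249 of the 7757 genes of a stricter filter to 731 of 19775 genes without a filter, both of which follow the number of genes tested. Without the pairing by animal (no replicate block), 410 control changes and 730 anti-miR-33 changes were called, and 0 differences, with 251 at an unadjusted p under 0.05. Over the animals left out, the control count ranged from 426 to 1112 and the anti-miR-33 count from 876 to 1695. Without control animals 1 and 5, an alternative added after the data were seen, 262 control changes were called. The difference in the 3′ minus 5′ value ranged from -0.19 to 0.08, with the positive value of 0.075 without control animal 1.

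Of 2608 values of the 110 genes under alternatives, 2588 kept their direction. Without control animals 1 and 5, ELOVL6 turned to 0.19, DLST to -0.0525, TRIAP1 to -0.0133 and ACACA to 0.0575. With the mean of all probe sets, ACACA turned to 0.0075 and RAB5C to 0.0142, and with array weights ACACA turned to 0.00697. Over the animals left out, ELOVL6 ranged from -0.48 to 0.0113, FBXL17 from -0.000333 to 0.21, ANXA6 from -0.22 to 0.015, TRIAP1 from -0.0433 to 0.15 and DLST from -0.014 to 0.084. The cause was not tested. Of these 110 genes, 19 of 29 control calls and 22 of 36 anti-miR-33 calls were kept in all 12 fits that left out an animal. These counts leave out list members named only for a call within an arm, such as PSMB9, ERAP1 and HADHA. Dim probe sets such as that of WNT2B limit what a difference can show.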
